A study of Mus musculus with 18 samples.

Results

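Brain RNA from 5xFAD mice fed fucose was compared with brain RNA from WT mice fed a control diet, using 12 of the 18 libraries of the series: 6 libraries labelled 5xFAD, 1 month on the fucose diet, and 6 labelled WT, 1 month on the control diet. These 12 libraries were taken by their labels and all genes of the deposited table were considered. 5xFAD mice carry mutant human transgenes, APP among them, with changes known from inherited Alzheimer's disease, under neuronal elements of the mouse Thy1 gene, and they deposit amyloid in the brain. The tissue is given as brain, with no region, age or sex stated in the labels used here, and the libraries were made from polyadenylated RNA. Genotype and diet differ together between these 2 groups, so an effect of the transgenes and an effect of fucose cannot be told apart in any result below. The labels do not tie each library to a separate animal, and the p-values therefore measure the spread between libraries.

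Microglia are the resident macrophages of the brain. Around amyloid plaques they are known to switch on a programme that depends on the receptor Trem2 and its signalling partner Tyrobp, with genes of lysosomes, lipid handling and antigen uptake, while nearby astrocytes raise filament and secreted acute-phase genes. Fucose is a sugar that is activated to GDP-fucose, either from free fucose or from mannose, and attached to glycoproteins by fucosyltransferases; Notch receptors and several synaptic proteins carry it.

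Recovered read totals were 38.98 ± 4.73 M in WT control and 38.33 ± 2.47 M in fucose-fed 5xFAD (SD, n = 6 each), within 31.4 to 44.2 M per library. Neuronal Snap25, oligodendrocyte Mbp, astrocyte Slc1a2 and microglial Csf1r were present in every library. The cerebellar granule cell gene Gabra6 was at 0 in all WT control libraries and reached at most 2.21 normalized counts in fucose-fed 5xFAD, which lies under the 3 reads that a count of 0 allows. Several libraries stood apart. WT replicate 4 and 5xFAD fucose replicate 5 held almost no Xist, an RNA made from the silenced X, and had the highest values of Y-linked Ddx3y in their groups, 1703 and 1641 normalized counts. WT replicate 3 and 5xFAD fucose replicate 4 were low in hippocampal markers (-1.30 and -1.53 log2 units from the WT control mean of the list) and high in striatal markers (2.12 and 1.11). 5xFAD fucose replicate 1 was at -0.43 and 0.93 for these lists, and WT replicate 6 was the lowest in striatal markers (-1.75). 5xFAD fucose replicate 1 was the highest in blood markers and the lowest fucose library in homeostatic microglia markers, as described below.

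A gene was called where limma gave an adjusted p under 0.05 over the 18042 genes tested. By this rule 288 genes were called, 280 higher and 8 lower in fucose-fed 5xFAD, which is 1.6% of the genes tested (1.55% higher and 0.0443% lower). Of the higher genes 162 exceeded 2-fold (0.898% of the genes tested), 56 exceeded 4-fold and 23 exceeded 8-fold, while 0 of the lower genes reached 2-fold. For 287 genes (1.59%), 261 higher (1.45%) and 26 lower (0.144%), no library of 1 group lay within the range of the other, and 217 of these 287 were called. Without both libraries low in Xist 254 genes were higher and 9 lower, and without both libraries low in hippocampal markers 218 were higher and 10 lower. For 14195 genes (78.7%) the 95% interval of the fold change stayed within 2-fold in either direction, and for 10948 (60.7%) it stayed within 1.5-fold. The median WT control level of the higher genes was 213.8 normalized counts against 587 over all genes tested, though 58 of the 280 were over 1000. The median of the 8 lower genes was 3392. 111 of the 280 higher genes belonged to a gene list used here and 169 to none. Of the 111, 12 were in the reactive astrocyte list and 86 in the microglial, Trem2, immune receptor, myeloid factor, complement or lysosomal lists. Chemokine, antigen presentation, interferon and proton pump lists were not used for the count of 86. The lists were chosen with earlier results of these data known, and the share of all tested genes in them was not counted.

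**Figure D1:**
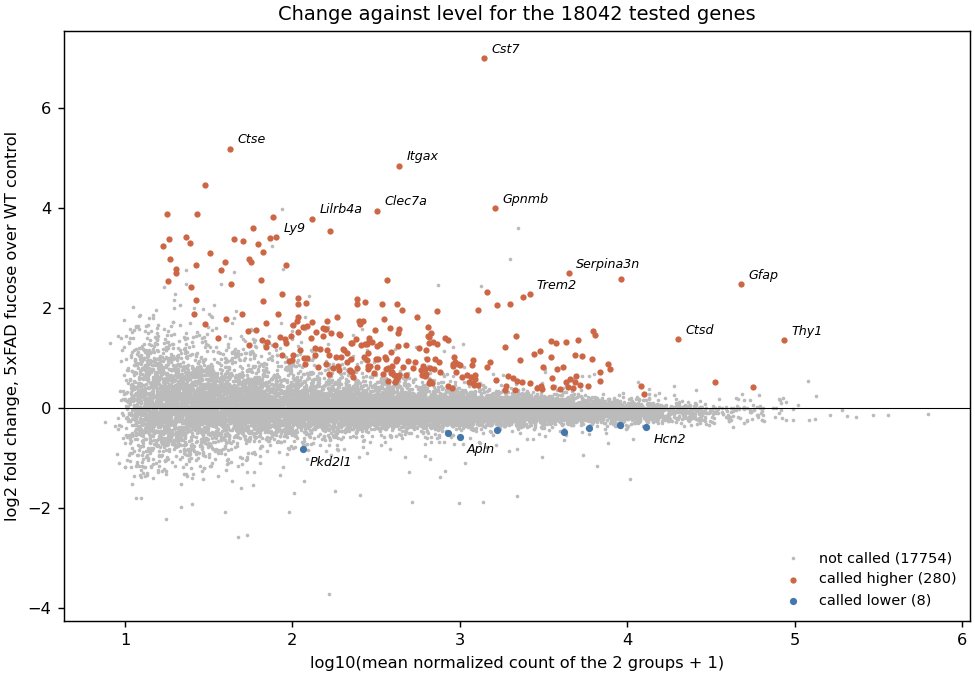
Log2 fold change of fucose-fed 5xFAD over WT control against the log10 mean normalized count of both groups, 1 point per tested gene, with 280 genes called higher in orange, 8 called lower in blue and the remaining genes in grey. The called genes lie almost all above 0, and the largest differences are those of Cst7, Ctse and Itgax.

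Genes of plaque-associated microglia were among those with the largest differences. Cst7 (ENSMUSG00000068129.5, chromosome 2, 150570415 to 150578944, plus strand) encodes cystatin F, an inhibitor of lysosomal cysteine proteases. Its libraries lay between 8.10 and 35.4 normalized counts in WT control (median 21.1) and between 1239 and 4613 in fucose-fed 5xFAD (median 2681). The lowest fucose library, replicate 1 at 1239, was far above the highest WT library, and replicate 4 was the highest at 4613. The means were 21.2 ± 9.96 normalized counts in WT control and 2786 ± 1103 in fucose-fed 5xFAD (SD, n = 6 each), a log2 fold change of 7.01 ± 0.34 SE, or 129-fold (limma adjusted p = 1.79e-08). In bulk brain RNA, more cells of a type and more RNA per cell cannot be told apart. Itgax (ENSMUSG00000030789.9, chromosome 7, 128129547 to 128150657, plus strand), the CD11c integrin chain, lay between 14.2 and 34.3 normalized counts in WT control (median 23.6) and between 223 and 1705 in fucose-fed 5xFAD (median 799). Replicate 1 was again the lowest fucose library at 223 and replicate 4 the highest at 1705, without overlap between groups, and the log2 fold change was 4.85 ± 0.36 SE (adjusted p = 7.88e-07). Clec7a (ENSMUSG00000079293.11, chromosome 6, 129461591 to 129472779, minus strand), the beta-glucan receptor Dectin-1, had 23.7 to 47.0 (median 35.8) in WT control and 224 to 767 (median 655) in fucose-fed 5xFAD. 5 fucose libraries lay at 556 or above and replicate 1 at 224, still above every WT library, with a log2 fold change of 3.95 ± 0.27 SE (adjusted p = 1.09e-07). Gpnmb (ENSMUSG00000029816.10, chromosome 6, 49036546 to 49070929, plus strand), a transmembrane glycoprotein of phagocytes under lysosomal load, had 134 to 279 (median 166) in WT control and 1751 to 4486 (median 2885) in fucose-fed 5xFAD. Here replicate 5 was the lowest fucose library and replicates 3 and 4 the highest, and the log2 fold change was 4.01 ± 0.25 SE (adjusted p = 5.67e-07).

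Of the 31 genes of the plaque-associated microglia list 25 were higher and 0 lower. The median log2 fold change was 1.38 beside -0.012 over all genes tested. Over all genes tested 1.55% were called higher and 0.0443% lower, and these shares stand beside each later list count as well. The number of higher genes in this list was 24 without both libraries low in Xist and 24 without both libraries low in hippocampal markers. The mean log2 level of the list, taken from the WT control mean, was -0.059 to 0.094 in WT libraries and 1.38 to 2.27 in fucose libraries, lowest in replicate 1 and highest in replicate 4. Lilrb4a, an inhibitory receptor, was higher by 3.79 ± 0.36 SE on the log2 scale. It shares 92.8% of its exon bases with a second entry of the same name, so its reads cannot be assigned to 1 of them. Among secreted factors, Igf1, a growth factor, was higher by 0.95 ± 0.15 SE and Csf1, a ligand that sustains microglia, by 0.93 ± 0.11 SE. Axl, a kinase receptor for dying cells, was higher by 0.65 ± 0.085 SE. Apoe and Lpl, list members that the naming rule did not take and that were looked at afterwards as familiar markers of this programme, were not called. Apoe, the main apolipoprotein of the brain, averaged 97257 ± 18523 normalized counts in WT control and 142050 ± 26039 in fucose-fed 5xFAD (log2 fold change 0.55 ± 0.14 SE, adjusted p = 0.0599), and its ranges overlapped. Lpl, a lipoprotein lipase, had a log2 fold change of -0.0021 with a 95% interval of -0.24 to 0.24.

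**Figure D2:**
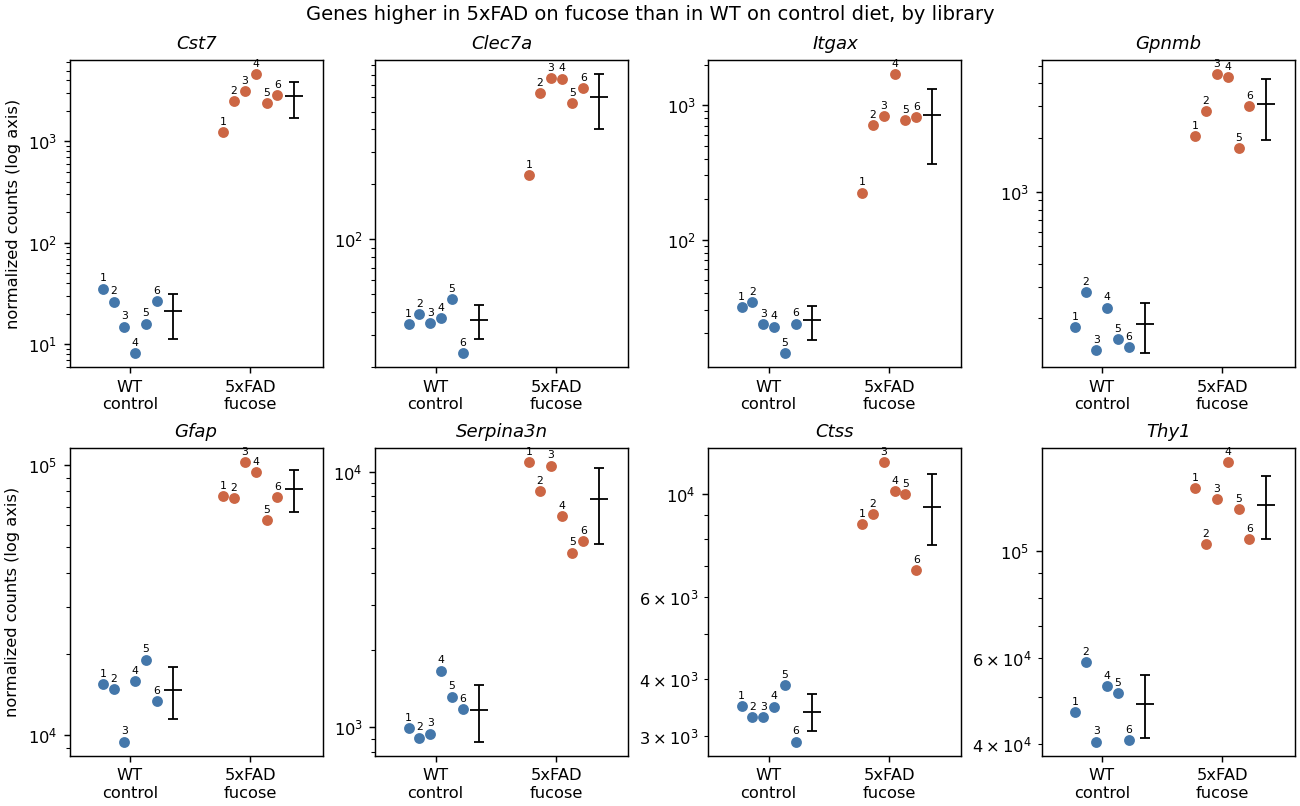
Normalized counts on a log axis for 8 genes in each of the 12 libraries, with the replicate number above each point and the group mean ± SD (n = 6) at the right of the points. All 6 fucose-fed 5xFAD libraries lie above all 6 WT control libraries for each gene, and replicate 1 is the lowest fucose library for Cst7, Clec7a and Itgax but the highest for Serpina3n.

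Of the receptors and signal carriers of the Trem2 route 10 of 19 tested genes were higher. Trem2 (ENSMUSG00000023992.14, chromosome 17, 48346401 to 48354147, plus strand), a receptor for lipids and lipoproteins, lay between 652 and 980.1 normalized counts in WT control (median 904) and between 2601 and 6405 in fucose-fed 5xFAD (median 4046). Every fucose library was above every WT library, with replicate 1 the lowest and replicate 4 the highest, and the log2 fold change was 2.28 ± 0.17 SE (adjusted p = 1.39e-06). Tyrobp, the membrane adaptor through which Trem2 signals, was also lowest in replicate 1 and highest in replicate 4 of the fucose group, with 527 to 771 (median 598) in WT control and 1342 to 4199 (median 2555) in fucose-fed 5xFAD and a log2 fold change of 2.06 ± 0.21 SE. Vav1, a guanine nucleotide exchange factor of blood cells, was higher by 1.29 ± 0.18 SE and Inpp5d, the phosphatase SHIP1 that opposes this signal, by 1.16 ± 0.16 SE. In this list 0 genes were lower, 9 were not called and the median was 0.99. The mean level of this list was -0.12 to 0.25 in WT and 0.85 to 1.27 in fucose libraries, a narrower span among the fucose libraries than that of the plaque-associated list.

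Sequences just upstream of the start are shown for called genes whose promoter holds the core recognised by PU.1, the myeloid factor encoded by Spi1. PU.1 was chosen because Spi1 itself was higher (0.98 ± 0.18 SE). In addition, 86 of the 280 higher genes were in the microglial, immune receptor, myeloid, complement and lysosomal lists counted above. The letters searched were GAGGAAGT on either strand in the 250 bases before and 50 bases after each RefSeq start (GRCm38.p6), and capitals mark the match. This core was present in 1052 of 32851 promoters (3.2%), in the promoters of 416 of 12342 tested genes (3.37%) and in those of 27 of 204 higher genes (13.2%). A match is a description of letters and not a shown binding site. The leading higher genes Mpeg1, Csf3r, Cst7, Clec7a, Gpnmb and Itgax held no match. Of the lower genes, Ccdc184 held a match, while Ache, Apln and Hcn2 did not. Whether PU.1 had a part in any difference was not tested. The promoters below are those of Ctss (chr3:95526536-95526835, plus strand), Vav1 (chr17:57278850-57279149, plus strand) and Inpp5d (chr1:87620062-87620361, plus strand), the 3 genes with the smallest p among the named ones with a match.
Ctss: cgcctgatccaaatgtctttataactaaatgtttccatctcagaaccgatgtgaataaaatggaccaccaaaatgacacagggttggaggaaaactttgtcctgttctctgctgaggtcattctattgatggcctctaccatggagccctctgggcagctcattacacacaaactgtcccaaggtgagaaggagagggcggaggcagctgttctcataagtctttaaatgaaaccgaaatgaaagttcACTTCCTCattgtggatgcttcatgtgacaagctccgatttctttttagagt
Vav1: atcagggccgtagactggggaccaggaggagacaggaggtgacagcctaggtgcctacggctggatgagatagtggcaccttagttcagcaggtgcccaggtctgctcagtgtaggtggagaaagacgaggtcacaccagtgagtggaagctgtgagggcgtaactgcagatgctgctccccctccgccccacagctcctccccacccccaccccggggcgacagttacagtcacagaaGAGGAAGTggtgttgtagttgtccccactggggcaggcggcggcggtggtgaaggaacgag
Inpp5d: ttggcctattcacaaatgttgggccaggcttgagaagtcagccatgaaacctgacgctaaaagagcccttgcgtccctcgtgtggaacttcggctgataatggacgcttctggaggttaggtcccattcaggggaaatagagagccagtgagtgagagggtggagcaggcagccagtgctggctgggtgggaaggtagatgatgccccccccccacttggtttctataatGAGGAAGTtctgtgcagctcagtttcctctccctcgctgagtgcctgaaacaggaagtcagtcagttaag

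For comparison, the palindromic lysosomal CLEAR core TCACGTGA was found in 0.974% of promoters, in 1.9% of tested genes and in 3 of 204 higher genes (1.47%). The STAT spacing TTCNNNGAA was in 8.3% of promoters, 8.27% of tested genes and 16 of 204 higher genes (7.84%). The promoter of Gfap (chr11:102897151-102897450, minus strand) holds the STAT spacing, in capitals, and is shown as that of the astrocyte gene with the smallest p.
Gfap: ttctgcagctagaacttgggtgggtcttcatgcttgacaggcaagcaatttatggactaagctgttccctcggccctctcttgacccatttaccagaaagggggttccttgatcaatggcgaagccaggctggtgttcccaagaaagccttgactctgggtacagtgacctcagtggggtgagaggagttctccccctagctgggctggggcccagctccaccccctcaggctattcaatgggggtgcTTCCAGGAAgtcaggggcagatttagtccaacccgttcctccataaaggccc

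Further receptors of microglia and other phagocytes were higher. Mpeg1 (ENSMUSG00000046805.9, chromosome 19, 12460779 to 12465284, plus strand), a pore-forming protein of phagosomes, had the smallest p of all genes, with 714 to 1030 (median 809) in WT control and 2989 to 4816 (median 3807) in fucose-fed 5xFAD. Its lowest fucose library was far above its highest WT library, a log2 fold change of 2.23 ± 0.11 SE (adjusted p = 5.92e-09). Csf3r, the receptor for granulocyte colony-stimulating factor, had 259 to 347 (median 294) in WT control and 1039 to 1392 (median 1124) in fucose-fed 5xFAD, with replicate 3 alone above the otherwise narrow fucose range (log2 fold change 1.94 ± 0.11 SE). In the list of pattern and Fc receptors 11 of 22 tested members were higher and 0 lower (median 1.40). Fcgr2b, the inhibitory receptor for antibody Fc parts, was higher by 1.97 ± 0.18 SE. Cd14, a co-receptor for bacterial lipopolysaccharide, was higher by 1.51 ± 0.22 SE, with replicate 1 at 1191 and the other fucose libraries at 620.1 or less. The scavenger receptor Msr1 lay at 0 to 15.3 normalized counts in WT control and 22.6 to 69.1 in fucose-fed 5xFAD, and its log2 fold change ran from 1.95 to 4.00 over the alternatives.

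Receptors that restrain immune cells had 12 of 22 tested members higher and 0 lower (median 1.23). Vsir, the checkpoint protein VISTA, was at 1111 ± 167 normalized counts in WT control and 2600 ± 373 in fucose-fed 5xFAD (SD, n = 6 each; log2 fold change 1.23 ± 0.12 SE) and Lair1, a collagen receptor with inhibitory motifs, at 251 ± 18.4 against 603 ± 122 (log2 fold change 1.24 ± 0.14 SE). Neither overlapped between groups. Cd22, a sialic acid receptor, ranged from 0 to 34.1 in WT control and from 99.5 to 166 in fucose-fed 5xFAD, a log2 fold change of 3.83 ± 0.71 SE. Ly9, a self-binding receptor of the SLAM family, had 4.58 to 26.5 (median 13.2) in WT control and 104 to 201 (median 136) in fucose-fed 5xFAD and a log2 fold change of 3.42 ± 0.34 SE. Also among the largest differences were the metabolite receptor Hcar2 (3.60 ± 0.63 SE), the G-protein regulator Rgs1 (3.90 ± 0.73 SE), the immunoglobulin-like receptor Milr1 (3.38 ± 0.61 SE) and Asb10, a SOCS-box protein gene (3.41 ± 0.61 SE). In each of these 4 genes at least 1 WT library was at 1.77 normalized counts or less, and only Asb10 overlapped between groups.

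All 14 markers of homeostatic microglia had a positive log2 fold change, from 0.11 to 1.30 (median 0.74). Of these, 7 were called higher and 0 lower. Csf1r (ENSMUSG00000024621.15, chromosome 18, 61105572 to 61132149, plus strand), the receptor whose ligands keep microglia alive, lay between 3417 and 4404 normalized counts in WT control (median 4281) and between 7189 and 9268 in fucose-fed 5xFAD (median 8180), without overlap and with a log2 fold change of 0.98 ± 0.089 SE. It shares 15.1% of its exon bases with Hmgxb3. Cx3cr1, the fractalkine receptor, was at 1272 to 1931 (median 1488) in WT control and 1706 to 3809 (median 3451) in fucose-fed 5xFAD. Replicate 1 of the fucose group at 1706 lay inside the WT range and the other 5 above it (log2 fold change 0.97 ± 0.18 SE, adjusted p = 0.00840). Siglech, a sialic acid binding lectin, showed the same pattern, with replicate 1 at 537 below the highest WT value of 595 (log2 fold change 0.77 ± 0.15 SE). P2ry12 and Tmem119, looked at afterwards as the usual identity markers, were not called, at 0.33 ± 0.15 SE (adjusted p = 0.501) and 0.11 ± 0.12 SE (adjusted p = 0.835). In both genes fucose replicate 1 was the lowest of all 12 libraries, with 753 and 1310 normalized counts.

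The mean level of the homeostatic list was -0.017 in fucose replicate 1, against 0.71 to 1.04 in the other 5 fucose libraries and -0.14 to 0.24 in WT control. Without that library 11 of the 14 genes were called, while 4 were called without fucose replicate 3, 4 or 6 or WT replicate 6. The same library had the lowest value of the fucose group in 111 of the 280 higher genes and the highest in 36. Its blood marker level was 2.28 and that of replicate 2 was 1.93, beside -0.51 to 0.60 in WT control; 0 of 5 blood markers were called, and their part in the microglial values was not tested.

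Border macrophages and lymphocytes share genes with microglia, and their markers were counted for that reason. Markers of blood were counted beside them. Border macrophage markers had 0 of 7 called, but all 7 had a positive log2 fold change, from 0.17 to 1.14 (median 0.58). Their mean level, taken from the WT control mean, was -0.47 to 0.455 in WT libraries and 0.16 to 0.996 in fucose libraries. Their summed level was 251 to 519 normalized counts in WT libraries and 344 to 794 in fucose libraries. Lyve1, a hyaluronan receptor of such macrophages, averaged 18.1 ± 10.5 against 42.0 ± 29.8 normalized counts and was not called (adjusted p = 0.394). Only 4 of 10 lymphocyte markers passed the filter on low counts and 0 of them were called, with a summed level of 187 to 1451 in WT and 175 to 1026 in fucose libraries. The sum does not follow the other markers: 1438 of the WT maximum of 1451 was Cd4 in WT replicate 3, the library with the lowest mean log2 level of the list (-1.01 from the WT control mean) and the highest striatal level. The neutrophil gene S100a8 reached at most 3.54 normalized counts in WT and 44.3 in fucose libraries and did not pass the filter. Camp, another neutrophil gene, did not pass it either, and 4 of the 9 listed blood markers were below it. The tested blood markers included the globin genes Hba-a1 and Hbb-bt.

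**Figure D3:**
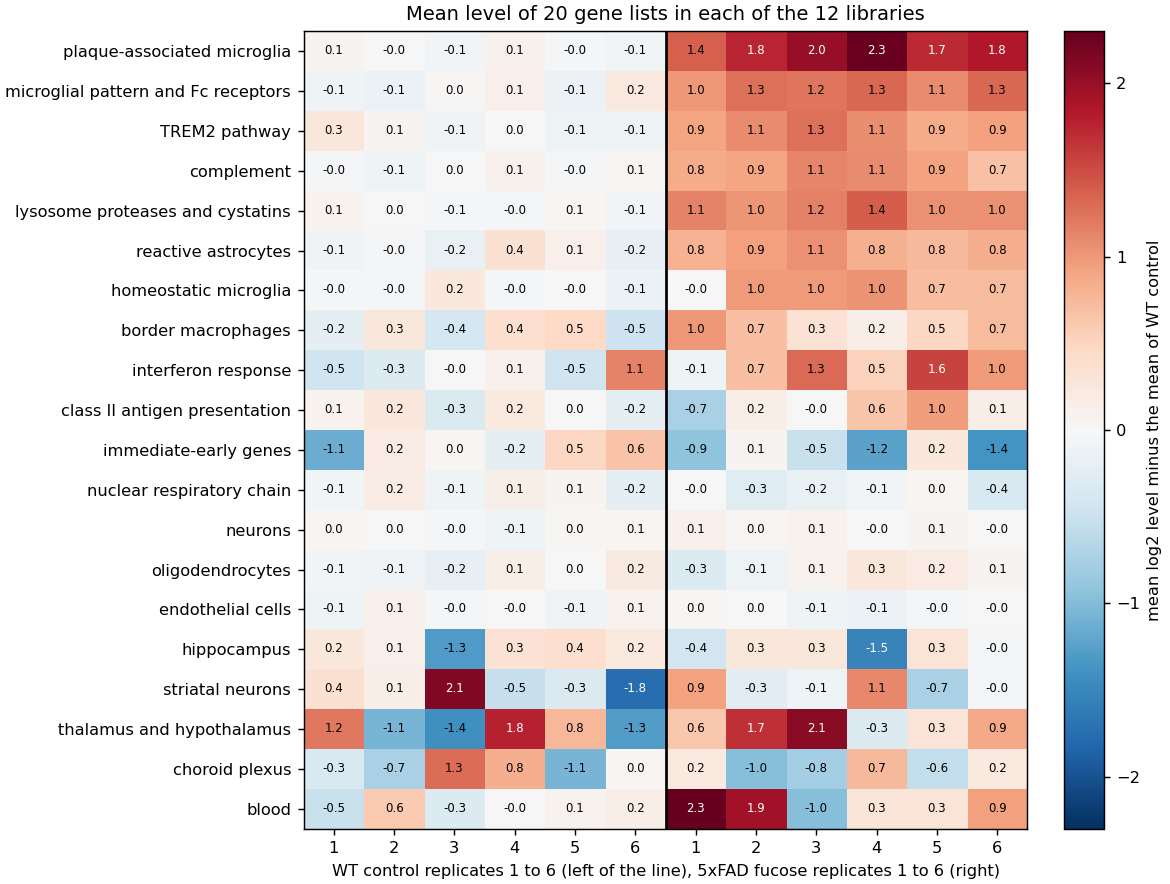
Mean log2 level of 20 gene lists in each of the 12 libraries, minus the mean of the 6 WT control libraries, with WT control left and fucose-fed 5xFAD right of the line. The plaque-associated, complement, protease and reactive astrocyte lists are above WT in all 6 fucose libraries, and homeostatic microglia are at WT level in replicate 1. The hippocampal list is lowest and the striatal list highest in WT replicate 3 and fucose replicate 4. The striatal list is lowest in WT replicate 6 and also raised in fucose replicate 1.

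Transcription factors of myeloid cells were counted next, and 5 of 20 tested members were higher and 0 lower, with a list median of 0.23. Irf8, needed for microglial development, had 265 to 480.0 (median 358) in WT control and 479 to 1323 (median 950.4) in fucose-fed 5xFAD, and fucose replicate 1 lay just below the highest WT value (log2 fold change 1.31 ± 0.20 SE). Ikzf1, a zinc finger factor of blood lineages, was higher by 1.03 ± 0.18 SE, and Spi1, at 285 ± 87.1 normalized counts in WT control and 555 ± 118 in fucose-fed 5xFAD, by 0.98 ± 0.18 SE with overlap. Bhlhe41, a circadian and microglial repressor, was not called (0.24 ± 0.084 SE, adjusted p = 0.293).

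Lysosomal genes were higher in several classes. Ctss (ENSMUSG00000038642.10, chromosome 3, 95526786 to 95556403, plus strand), a cysteine protease of phagocytes, lay between 2924 and 3874 normalized counts in WT control (median 3390) and between 6861 and 11733 in fucose-fed 5xFAD (median 9538). The groups were well apart and fucose replicate 6 was the lowest of its group (log2 fold change 1.46 ± 0.11 SE, adjusted p = 3.67e-07). Ctsd, the main aspartic protease of lysosomes, had 9517 to 11953 (median 11272) in WT control and 21129 to 37640 (median 28696) in fucose-fed 5xFAD and a log2 fold change of 1.38 ± 0.11 SE; it shares 34.4% of its exon bases with another annotated gene. Ctsz, a carboxypeptidase, was higher by 1.33 ± 0.12 SE. Ctse, an aspartic protease of endosomes, was at 0 to 3.79 normalized counts in WT libraries and 18.7 to 153 in fucose libraries. Most WT values were within the 3 reads that a count of 0 allows, and its log2 fold change ran from 3.06 to 5.95 over the alternatives. In the list of proteases and cystatins 11 of 18 tested members were higher and 0 lower (median 0.53).

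Among glycosidases and membrane proteins of the lysosome 13 of 31 were higher and 0 lower (median 0.29). Man2b1, the lysosomal alpha-mannosidase, was at 2306 ± 225 normalized counts in WT control and 4667 ± 324 in fucose-fed 5xFAD (SD, n = 6 each), a log2 fold change of 1.02 ± 0.08 SE with a tight spread in both groups. Grn, the precursor of granulins, was higher by 1.04 ± 0.095 SE and Laptm5, a lysosomal membrane protein of leukocytes, by 1.36 ± 0.12 SE. In the list of the proton pump that acidifies the lysosome 2 of 20 subunits and partners were higher, with a median of 0.04. These were Tcirg1, a membrane subunit known from osteoclasts (989 ± 72.6 against 1414 ± 156 normalized counts, log2 fold change 0.51 ± 0.09 SE), and Atp6v0d2, another osteoclast and macrophage subunit, which was at 0 in 4 WT libraries, at 10.6 and 7.58 in the other 2, and at 17.7 to 110.3 in fucose libraries. Slc11a1, a metal transporter of phagosomes, was higher by 2.09 ± 0.17 SE and Hmox1, which breaks down heme, by 0.94 ± 0.15 SE, the 2 called genes among 14 tested genes of iron handling.

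Complement genes, which tag material for uptake, had 9 of 21 tested members higher and 0 lower (median 0.59). C1qa (ENSMUSG00000036887.5, chromosome 4, 136895917 to 136898803, minus strand), a chain of the first component, lay between 2297 and 3965 normalized counts in WT control (median 3255) and between 7377 and 10842 in fucose-fed 5xFAD (median 9462). All fucose libraries were above all WT libraries, with replicates 3 and 4 the highest (log2 fold change 1.55 ± 0.13 SE). C3ar1, the receptor for the C3a fragment, was higher by 2.18 ± 0.18 SE and Itgb2, the shared beta chain of leukocyte complement receptors, by 1.51 ± 0.13 SE. Clu, an extracellular chaperone that also binds complement, was at 47548 ± 4209 normalized counts in WT control and 64632 ± 10231 in fucose-fed 5xFAD and was called at an adjusted p of 0.0318. Its call was kept in 15 of 25 alternatives, and with 1 library left out it was kept only without fucose replicate 2, 5 or 6 or WT replicate 2.

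Reactive astrocyte genes had 12 of 31 tested members higher and 0 lower (median 0.57). Gfap, the filament protein of astrocytes (ENSMUSG00000020932.14, chromosome 11, 102887336 to 102900912, minus strand), lay between 9490 and 19090 normalized counts in WT control (median 15155) and between 62704 and 102650 in fucose-fed 5xFAD (median 76474). WT replicate 3, low in hippocampal markers, was the lowest library and fucose replicate 5 the lowest of its group, far above the WT maximum (log2 fold change 2.48 ± 0.15 SE, adjusted p = 8.92e-08). Serpina3n, a secreted protease inhibitor, had 909 to 1663 (median 1082) in WT control and 4820 to 10882 (median 7530) in fucose-fed 5xFAD. Replicates 1 and 3 of the fucose group were the highest and replicate 5 the lowest; replicate 1 was the lowest fucose library for Cst7, Itgax and Clec7a (log2 fold change 2.70 ± 0.22 SE). Aspg, an asparaginase, was higher by 1.82 ± 0.15 SE and Vim, the filament protein vimentin, by 1.35 ± 0.15 SE. In homeostatic astrocyte markers 0 of 12 were called and the median was 0.13; the water channel Aqp4 was at 2559 ± 603 against 3672 ± 849, a log2 fold change of 0.51 ± 0.17 SE (adjusted p = 0.246). Taken as a list, the reactive genes were above WT in every fucose library, at 0.75 to 1.05 beside -0.18 to 0.35.

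Secreted signals were led by chemokines. 6 of 22 tested chemokine and cytokine genes were higher and 0 lower (median 0.78). Ccl6, a chemokine of myeloid cells, had 74.4 to 132 (median 88.3) in WT control and 230.2 to 1394 (median 540.2) in fucose-fed 5xFAD, and fucose replicate 4 at 1394 was far above the next library at 661 (log2 fold change 2.56 ± 0.31 SE). Ccl3 and Ccl4, chemokines of activated macrophages, were higher by 3.55 ± 0.63 SE and 2.93 ± 0.46 SE, both highest in the same library; the call of Ccl3 was lost with voom and without both libraries low in Xist (highest adjusted p = 0.0697). Cxcl16, a membrane-bound chemokine, was higher by 1.21 ± 0.19 SE.

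**Figure D4:**
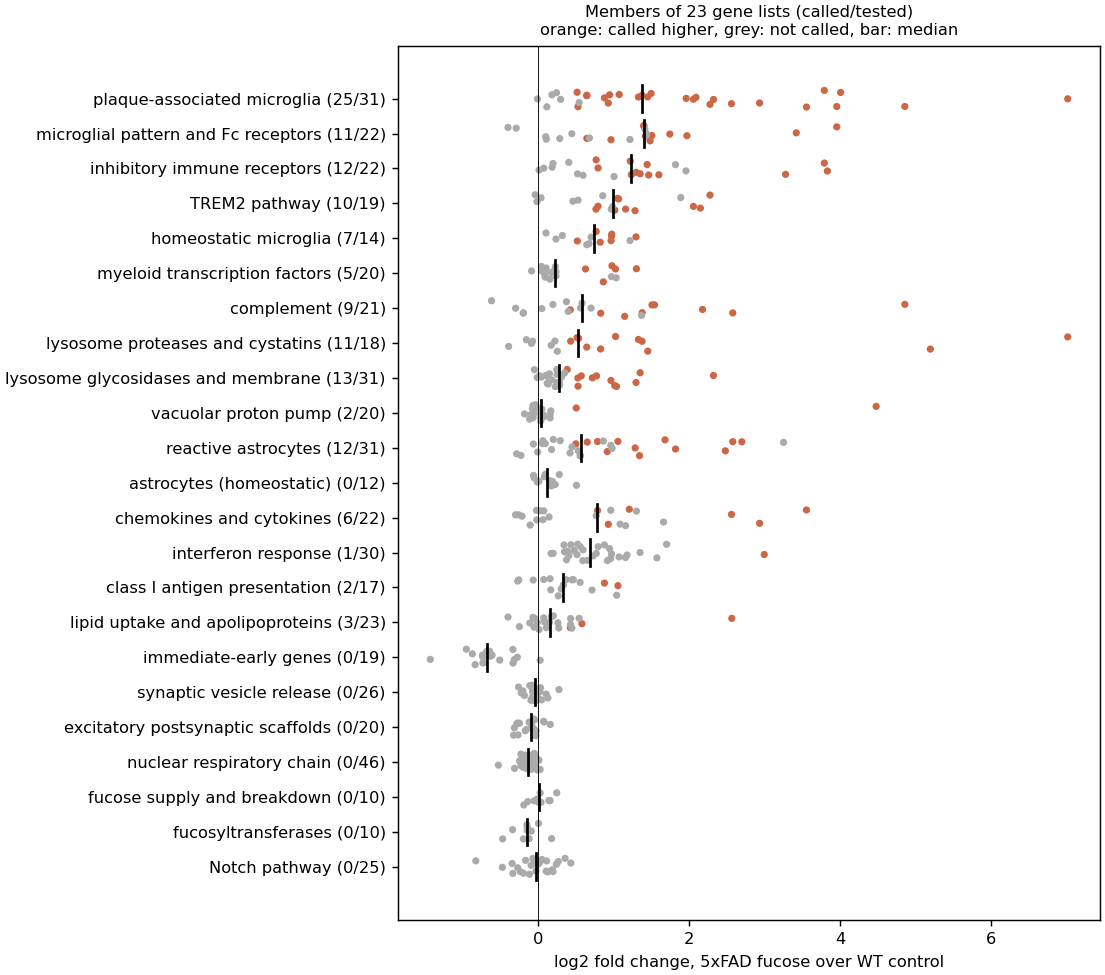
Log2 fold change of every tested member of 23 gene lists, 1 point per gene, orange where called higher and grey where not called, with a bar at the list median and the called and tested counts beside each name. Microglial, receptor, complement, lysosomal and reactive astrocyte lists extend to the right, the interferon list is shifted with 1 member called, and the medians of the synaptic, fucose and Notch lists lie between -0.14 and 0.022.

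In the class I, class II and interferon lists 2 of 17, 1 of 10 and 1 of 30 tested genes were called. The share over all genes tested was 1.6%. B2m, the light chain of class I molecules, was higher by 0.88 ± 0.12 SE and the class I heavy chain H2-D1 by 1.06 ± 0.19 SE, together 2 of 17 tested class I genes (median 0.34). H2-D1 has close paralogs whose reads may be shared. Of 10 class II genes only H2-Ob, a chain of a chaperone of peptide loading, was called (1.22 ± 0.29 SE, adjusted p = 0.0365), and this call was kept in 11 of 25 alternatives. With 1 library left out it was kept only without fucose replicate 2 or 5 or WT replicate 5 or 6. All 30 interferon response genes had a positive log2 fold change (median 0.70), but 1 was called, Ifi204, a DNA sensor, at 1.97 to 26.5 (median 9.98) in WT control and 43.9 to 157 (median 88.9) in fucose-fed 5xFAD (log2 fold change 3.00 ± 0.48 SE). DESeq2 called 4 of the 30, and without both libraries low in Xist the median was 0.50 with 1 called. The level of this list varied within groups, from -0.46 to 1.14 in WT, highest in replicate 6, and from -0.10 to 1.56 in fucose-fed 5xFAD, lowest in replicate 1.

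In lipid handling 3 of 23 tested genes were higher and 0 lower (median 0.16). Ch25h, which makes 25-hydroxycholesterol, was at 7.44 to 37.7 (median 15.8) in WT control and 78.6 to 166 (median 99.0) in fucose-fed 5xFAD (log2 fold change 2.57 ± 0.35 SE), Abca1, a cholesterol exporter, was higher by 0.59 ± 0.12 SE, and Clu is described above. Cholesterol synthesis had 0 of 21 genes called (median 0.025). Of 21 glycolysis genes the hexokinase Hk2 (0.69 ± 0.17 SE) and the lactate exporter Slc16a3 (0.63 ± 0.15 SE) were called, and these calls were kept in 12 and 10 of 25 alternatives. With 1 library left out Hk2 was called only without fucose replicate 1 or WT replicate 2, and Slc16a3 only without WT replicate 1 or 3. The nuclear respiratory chain had 0 of 46 genes called, a median of -0.13 and 2 members with a positive value. Cytosolic ribosomal proteins had 0 of 75 called (median -0.0033).

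Of the transgene-related genes reported here Thy1 was called and App was not. Thy1 (ENSMUSG00000032011.4, chromosome 9, 44043384 to 44048579, plus strand), a surface protein of neurons, lay between 40379 and 58895 normalized counts in WT control (median 48678) and between 103240 and 152460 in fucose-fed 5xFAD (median 124950). The groups were clearly separate, with a log2 fold change of 1.36 ± 0.11 SE (adjusted p = 7.88e-07). Its reads may include transgene transcripts that carry Thy1 sequence, so the level of the gene itself was not measured, and it was the only called member of the 11 neuronal markers. Mouse App (ENSMUSG00000022892.10, chromosome 16, 84954440 to 85173707, minus strand), the amyloid precursor, was at 57890 ± 2601 normalized counts in WT control and 57262 ± 2185 in fucose-fed 5xFAD (SD, n = 6 each; log2 fold change -0.015 ± 0.063 SE, 95% interval -0.15 to 0.12) and was not called. The human transgenes were not measured on their own, and whether reads of the APP transgene entered the mouse App value was not examined. In the list of APP processing 0 of 23 genes were called (median -0.0083), and Mme, the amyloid-degrading protease neprilysin, was at 336 ± 201 against 159.7 ± 61.2 normalized counts with overlapping ranges (adjusted p = 0.265).

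Lists of fucose supply and use had no called member. Over all genes tested 1.6% were called, so no call in lists this short is near that share. In fucose supply and breakdown 0 of 10 genes were called (median 0.022). On the salvage side Fuk, the kinase for free fucose, had a log2 fold change of -0.18 ± 0.095 SE, Fpgt, which makes GDP-fucose from it, one of -0.0069 with a 95% interval of -0.20 to 0.19, and Fuom, which interconverts the sugar's forms, one of 0.046 ± 0.10 SE. On the side of synthesis from mannose Gmds was at 0.15 ± 0.14 SE and Tsta3 at -0.13 ± 0.12 SE, and the transporters Slc35c1 and Slc35c2 were at 0.034 ± 0.091 SE and -0.045 ± 0.094 SE. Fuca1 (ENSMUSG00000028673.10, chromosome 4, 135920735 to 135940311, plus strand), the lysosomal fucosidase that removes fucose, lay between 1775 and 2251 normalized counts in WT control (median 1840) and between 1943 and 2491 in fucose-fed 5xFAD (median 2445). Its ranges overlapped (log2 fold change 0.25 ± 0.089 SE, adjusted p = 0.286), as did those of the secreted fucosidase gene Fuca2 (0.17 ± 0.086 SE).

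Of the fucosyltransferases 0 of 10 tested were called (median -0.14). Fut8, which adds the core fucose of N-glycans, was at 1678 ± 159 normalized counts in WT control and 1583 ± 139 in fucose-fed 5xFAD (log2 fold change -0.083 ± 0.086 SE, 95% interval -0.26 to 0.098). Fut9, which makes the Lewis X structure in brain, was at 2755 ± 609.9 against 2454 ± 172 normalized counts (log2 fold change -0.14 ± 0.12 SE). Pofut1 and Pofut2, which add fucose directly to proteins such as Notch and thrombospondin repeats, had log2 fold changes of 0.19 ± 0.11 SE and -0.19 ± 0.14 SE, Fut10 of 0.012 ± 0.28 SE and Fut11 of -0.11 ± 0.13 SE. Fut2, Fut4, Fut7 and Sec1 averaged under 100 normalized counts in both groups and had log2 fold changes between -0.46 and -0.14. The Notch pathway had 0 of 25 genes called (median -0.022). Its receptor Notch1 was at 461 ± 108 normalized counts in WT control and 630.4 ± 173 in fucose-fed 5xFAD with overlapping ranges (log2 fold change 0.44 ± 0.18 SE, adjusted p = 0.409), and Rfng, which extends the fucose on Notch, at -0.23 ± 0.094 SE.

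Synaptic lists had no called member, beside 1.6% called over all genes tested. The vesicle release list had 0 of 26 called (median -0.039), with the release regulator Cplx1 at -0.25 ± 0.084 SE (adjusted p = 0.232) and the active zone protein Rims1 at 0.28 ± 0.097 SE. Excitatory scaffolds had 0 of 20 called (median -0.083), with Dlg4, the scaffold PSD-95, at -0.26 ± 0.11 SE and Shank1 at -0.27 ± 0.12 SE. Ionotropic glutamate receptors had 0 of 17 and GABA-A receptors 0 of 14 called. Immediate-early genes, induced in active neurons, had 0 of 19 called although 18 of the 19 values were below 0 (median -0.67). Their list level was low in 4 fucose libraries (-0.92, -0.52, -1.24 and -1.38) and in WT replicate 1 (-1.14), and near or above the WT mean in the other 2 fucose libraries. Npas4, a neuron-specific activity gene, averaged 986 ± 354 against 623 ± 257 with overlapping ranges (log2 fold change -0.67 ± 0.29 SE, adjusted p = 0.482).

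The 8 genes lower in fucose-fed 5xFAD differed by less than 2-fold. Pkd2l1 (ENSMUSG00000037578.4, chromosome 19, 44147637 to 44192442, minus strand), a cation channel of neurons that contact cerebrospinal fluid, had the largest difference, 114 to 197 (median 137) in WT control and 60.2 to 95.3 (median 84.4) in fucose-fed 5xFAD. All fucose libraries were below all WT libraries (log2 fold change -0.83 ± 0.20 SE, adjusted p = 0.0495). Apln (ENSMUSG00000037010.7, chromosome X, 48025146 to 48034853, minus strand), the gene of the peptide apelin, lay between 829 and 1445 normalized counts in WT control (median 1210) and between 665 and 955 in fucose-fed 5xFAD (median 804). WT replicate 5 at 829 was within the fucose range and the other 5 WT libraries above it (log2 fold change -0.58 ± 0.13 SE, adjusted p = 0.0223). Foxp2, a transcription factor of deep cortical and striatal neurons, had 789 to 1134 (median 1011) in WT control and 579 to 845 (median 667) in fucose-fed 5xFAD, with overlap through WT replicate 2 and fucose replicate 5 (log2 fold change -0.50 ± 0.12 SE, adjusted p = 0.0301).

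Hcn2, a channel of the hyperpolarization-activated current, was at 14681 ± 1406 normalized counts in WT control and 11346 ± 1305 in fucose-fed 5xFAD (SD, n = 6 each; log2 fold change -0.37 ± 0.086 SE, adjusted p = 0.0289), and fucose replicate 5 at 13820 lay inside the WT range. Ache, acetylcholinesterase, was at 6686 ± 491 against 5101 ± 639, a log2 fold change of -0.40 ± 0.086 SE (adjusted p = 0.0194), with fucose replicate 4 just above the lowest WT library. Chga, a granin of dense-core vesicles, was at 10134 ± 424 against 8077 ± 999 (log2 fold change -0.34 ± 0.082 SE, adjusted p = 0.0466) without overlap, since its highest fucose library (9311) was just below its lowest WT library (9328). Ccdc184, a coiled-coil protein gene, had 1742 to 2140 (median 1900) in WT control and 1261 to 1834 (median 1349) in fucose-fed 5xFAD, and fucose replicate 5 was within the WT range (log2 fold change -0.44 ± 0.096 SE, adjusted p = 0.0189). 1110008P14Rik, outside the naming rule and added to complete the 8, did not overlap (log2 fold change -0.47 ± 0.098 SE, adjusted p = 0.0146).

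Each call among the 7 named lower genes was lost without some single libraries, and over 25 alternatives the calls were kept in 22 (Ccdc184), 20 (Ache), 17 (Hcn2), 16 (Apln), 15 (Foxp2), 9 (Chga) and 9 (Pkd2l1). With 1 library left out, Ccdc184 lost its call without fucose replicate 3 or 6 or WT replicate 2, and Ache without fucose replicate 2 or 3 or WT replicate 1 or 4. Hcn2 was called only without fucose replicate 5 or WT replicate 3, 5 or 6, Apln only without fucose replicate 2, 4 or 5 or WT replicate 4 or 5, and Foxp2 only without fucose replicate 5 or 6 or WT replicate 1 or 2. Chga was called only without fucose replicate 3 or 5 or WT replicate 3, and Pkd2l1 only without fucose replicate 1 or WT replicate 1 or 4. The number of lower genes was 5, 4, 2, 23 and 3 without fucose replicates 1, 2, 3, 5 and 6, and 3 and 4 without WT replicates 2 and 4. Several of these genes are regional in the brain, and the regional lists varied between libraries: striatal markers from -1.75 to 2.12 in WT and -0.74 to 1.11 in fucose libraries, and thalamic and hypothalamic markers from -1.41 to 1.77 and -0.32 to 2.08. 0 of 10 striatal, 0 of 14 thalamic and hypothalamic and 0 of 9 hippocampal markers were called, and the part of regional content in the lower genes was not tested. Without both libraries low in hippocampal markers the calls of Apln, Foxp2, Chga and Pkd2l1 were lost, and without both libraries low in Xist those of Ache, Apln, Chga and Pkd2l1.

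**Figure D5:**
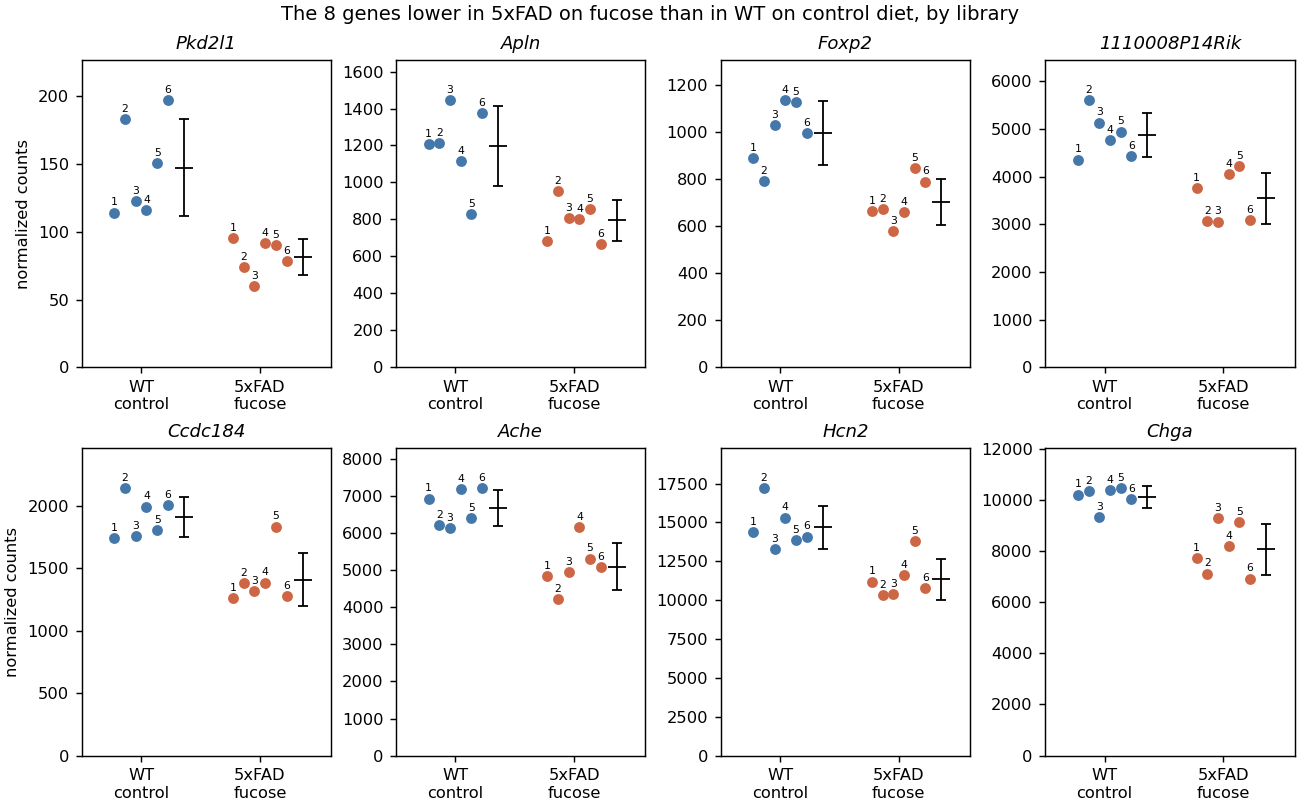
Normalized counts from 0 for the 8 genes called lower, in each of the 12 libraries, with replicate numbers above the points and the group mean ± SD (n = 6) beside them. Pkd2l1, 1110008P14Rik and Chga do not overlap, and fucose replicate 5 lies among the WT libraries for Ccdc184, Hcn2 and Foxp2.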

How the data were processed

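RNA of 6 WT control and 6 5xFAD fucose libraries was analysed. Tools listed in the submitters' processing notes are DESeq2 2.11.40.8, featureCounts 2.0.3, HISAT2 2.2.1 and Trimmomatic 0.39, with the build mm10, and no roles or order. The annotation, like the use of strand in counting, is not given in the sources used here. Values in the deposited table are a normalized count signal that the authors made by dividing gene counts by a size factor per library. All values were whole multiples of 1 read within 0.001 reads, so reads were recovered. A count of 0 allows up to 3 reads, a limit of counting error only. Chi-square per degree of freedom was 15.9 to 76.0 in 30 replicate pairs, so every pair differed by more than sampling noise.

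The test was limma 3.58.1 on log2(normalized count + 1) with trend and robust moderation (R 4.3.3), on genes kept by filterByExpr of edgeR 4.0.16 (minimum count 10), with Benjamini-Hochberg adjustment over 18042 of 48440 genes. Fold changes are on this log2 scale and understate low genes. DESeq2 1.42.0, edgeR, voom, other filters, pseudocounts (0.5 and 8) and left-out libraries were alternatives. 48058 identifiers occur in GENCODE M21. Gene coordinates are those of the deposited table (mm10, 1-based), and promoters are from RefSeq GRCm38.p6.

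The comparison, lists and members were chosen with earlier results of these data known. Named genes were the transgene-related genes, the 15 called genes of largest change and 5 of smallest p in each direction, up to 4 called members of each list by p, or 2 where none was called, and the fucose genes; predicted and sex-linked genes and those under 1 CPM were left out of the rankings. Genes named outside the rule are marked as such, and a few genes that the rule took are not reported here. Without strand, reads of overlapping genes cannot be separated.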

Additional observations from a re-analysis of the deposited data

Results flagged for a closer look

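Among the 160 named genes, 320 groups of 6 libraries were examined for 1 library far from the other 5, judged by its gap to the nearest library relative to the group's range, at Dixon's 95% critical value. Chance flags about 1 in 20 groups, and 26 were flagged. Values are normalized counts.

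In WT control, replicate 3 was the highest for the phosphodiesterase Pde10a, a striatal marker (14079, next 3454). It was also the highest for the inhibitory neuron marker Cnr1 (6060, next 3441) and the lymphocyte marker Cd4 (1438, next 434). WT replicate 4, low in Xist, had 914.8 for the ribosomal gene Rpl13a, 770.7 for Tyrobp and 15.3 for Msr1, the highest of the group. WT replicate 6 had the lowest Csf1r (3417) and Itgb2 (249) and the highest Abca1 (1312.5). WT replicate 1 had 4221 for the hypothalamic hormone gene Avp (next 163.9) and 69.9 for Fdps. WT replicate 2 had 18118 for the proteoglycan Bcan and 45821 for Shank1.

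In fucose-fed 5xFAD, replicate 1 was the highest for Cd14 (1191), Lyve1 (100.2), Rgs1 (113.6) and the glucose transporter Slc2a1 (7366). Replicate 4 was the highest for the chemokines Ccl3 (670.9, next 288) and Ccl6 (1394, next 661) and for Gabrg3 (912), and the lowest for the clock gene Arntl (742). Replicate 3 was the highest for Csf3r (1392) and Igf1 (841). Replicate 5, low in Xist, was the highest for Ccdc184 (1834), Hcn2 (13820) and Rfng (4805), the first 2 of which are genes called lower in this group. In WT replicate 5 and fucose replicates 2 and 6 no value was flagged.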

How the results depend on the processing

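The count of called genes was 273 to 294 with edgeR (RLE 273, TMM 291), voom (276), TMM scaling (294), no robust moderation (279) and pseudocounts of 0.5 (282) and 8 (292). It was 260 with no filter and 257 with a stricter filter. DESeq2 called 453 genes, 417 higher and 36 lower. With 1 library left out the total ran from 218 to 309, the higher genes from 216 to 304 and the lower genes from 2 to 23. Without both libraries low in Xist 516 genes did not overlap, and without both libraries low in hippocampal markers 435, where smaller groups overlap less often by construction; the second of these settings was chosen after seeing the data. Replicate numbers are shared by the groups, but same-numbered libraries did not deviate together (correlations of -0.12 to 0.21, and 2 of 6 best with their own number); with the replicate block 310 genes were called, 290 higher and 20 lower. For the other settings of these counts the cause of a difference was not tested. Of 71 named called genes 59 kept their call in all 25 alternatives (24 for genes removed by the stricter filter), 12 lost it in some, and 0 of the 71 reversed. Of the 89 named genes not called 7 were called in some setting and 10 changed the sign of their log2 fold change in some, none of them called there. With DESeq2, edgeR RLE and edgeR TMM it was -0.11, -0.10 and -0.092 for Cd4, -0.086, -0.087 and -0.077 for Fut10 and -0.14, -0.13 and -0.12 for Pde10a. Fut10 was at -0.014 with voom, and Fpgt at 0.003 with TMM scaling and 0.0021 with edgeR TMM. Without both libraries low in Xist Fpgt was at 0.0068, Fut4 at 0.15, Slc2a1 at -0.011 and Zic2 at 0.049, and without both low in hippocampal markers Fut10 was at -0.22 and Slc2a1 at -0.002. With 1 library left out App ran from -0.032 to 0.0057, Cd4 from -0.26 to 0.79, Fpgt from -0.027 to 0.019, Fut10 from -0.17 to 0.21, Fut4 from -0.39 to 0.046, Slc2a1 from -0.13 to 0.082, Slc35c1 from -0.0018 to 0.062 and Slc35c2 from -0.082 to 0.022. TMM scaling moved the median log2 fold change of all genes by 0.0099. Depth limits the genes with few reads in WT control, such as Ctse, Atp6v0d2, Msr1 and Rgs1, whose fold changes depend on the pseudocount, and the adjusted p of the named lower genes lay between 0.0189 and 0.0495.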

Other observations

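Gene families outside the lists were looked at after their values were seen, so their counts are descriptions. Over all genes tested 1.55% were called higher. The phagocyte NADPH oxidase, which makes superoxide, had 6 of 8 genes higher (median log2 fold change 1.18). Its membrane subunits Cyba (398 ± 84.3 normalized counts in WT control and 988 ± 121 in fucose-fed 5xFAD; SD, n = 6 each) and Cybb (log2 fold change 1.89 ± 0.25 SE), the subunit Ncf1 (1.12 ± 0.13 SE), the GTPase Rac2 (0.81 ± 0.19 SE) and the proton channel Hvcn1 (2.08 ± 0.31 SE) were among those called, while Ncf4 (0.92 ± 0.26 SE, adjusted p = 0.101) and the ubiquitous Rac1 (0.12 ± 0.067 SE) were not. Ncf1 ranged from 177 to 299 normalized counts in WT control and from 479 to 577 in fucose-fed 5xFAD, a narrow fucose range that also held for replicate 1.

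Actin regulators of leukocytes had 13 of 17 genes higher (median 0.92), among them the actin cappers and bundlers Capg (1.78 ± 0.18 SE) and Lcp1 (0.92 ± 0.13 SE) and the unconventional myosin Myo1f (1.56 ± 0.20 SE). Coro1a, often used as a leukocyte marker, was not called (5458 ± 1184 against 5039 ± 889 normalized counts, adjusted p = 0.874). Of the SLAM receptors 4 of 6 tested were higher, with Cd84 at 2.12 ± 0.23 SE and Slamf9 at 1.73 ± 0.22 SE beside Ly9. Of the beta integrins 2 of 7 were higher, Itgb2 and Itgb5, the latter at 2995 ± 251 normalized counts in WT control and 5318 ± 637 in fucose-fed 5xFAD. 0 of 7 tested Ms4a genes were called although their median was 0.99. The Cd300 family had 2 of 5 tested genes higher (median 1.30), and the Bcl2 family 2 of 14 (median 0.075).

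Relatives of the lower genes were not called. Hcn3 and Hcn4 had log2 fold changes of -0.083 ± 0.15 SE and 0.12 ± 0.33 SE beside Hcn2, and 1 of 7 granins was called, Chga, while Chgb was at -0.061 ± 0.091 SE. Vgf, at -0.55 ± 0.16 SE (adjusted p = 0.160), had a larger difference than Chga with a wider spread and was not called, nor was Pcsk1n at -0.30 ± 0.12 SE (adjusted p = 0.412). Ache was the only called gene of 12 cholinergic genes, and its relative Bche was at 0.12 ± 0.22 SE.

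Called genes lay side by side in 5 places with at least 3 called genes no more than 100 kb apart. These were Ccl6, Ccl3, Ccl4 and Wfdc17 on chromosome 11 (83587882 to 83706268), Treml2, B430306N03Rik and Trem2 on chromosome 17 (48300038 to 48354147), C3, Vav1 and Adgre1 on chromosome 17 (57203970 to 57483529), C1qb, C1qc and C1qa on chromosome 4 (136880129 to 136898803), and Ctsd, Tnni2 and Lsp1 on chromosome 7 (142375911 to 142494867). In all of these but the C3 group each gene tested in the span was called.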
